A study of Homo sapiens with 6 samples.

Results

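The 10 genes described here encode nuclear proteins, several of which are used to tell proliferating from senescent nuclei. They are MKI67, the DNA topoisomerase genes TOP2A, TOP2B and TOP1, the lamin genes LMNA, LMNB1 and LMNB2, and the HMGB genes HMGB1, HMGB2 and HMGB3. They were chosen by name, with earlier results of these data known. Each matched 1 gene of the 58735 in the deposited expression table. PANC-1 cells, an established human line from a pancreatic ductal carcinoma, were grown in DMEM with 10% fetal bovine serum and transfected with siRNA against METTL16, an RNA methyltransferase, or with a control siRNA. RNA was sequenced from 3 control cultures (si-NC, which 1 label field instead calls WT) and 3 METTL16-silenced cultures (si-METTL16), given as biological triplicates. The study's methods call the sequenced cells stably transfected and describe puromycin selection for its stable knockdown lines, whereas the labels mention only transfection. Both groups come from this 1 cell line, so the comparison covers no other pancreatic line. The comparison asks how these nuclear genes differ in RNA level when METTL16 is silenced.

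Ki-67, the product of MKI67, coats mitotic chromosomes and keeps them apart, and it is absent from resting cells. Topoisomerases relieve the twisting and tangling of DNA by cutting and resealing it. Lamins form the meshwork under the inner nuclear membrane, and HMGB proteins bend DNA and loosen chromatin. Loss of lamin B1 and of nuclear HMGB1 and HMGB2 are known features of senescent cells, whereas MKI67 and TOP2A are transcribed mostly in late S, G2 and M phase. In cycle-regulated promoters, transcription factor complexes contact the CHR element (cell cycle genes homology region) and, through NF-Y, the CCAAT box.

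The DNA just before 4 of these genes is shown because the genes differed in their response: MKI67, TOP2A and HMGB3 rose most and LMNB1 did not pass the test. Each window holds the 250 bases before a start site of the RefSeq annotation on GRCh38.p14, written 5′ to 3′ on the strand of the gene, at chr10:128126424-128126673 (minus), chr17:40417897-40418146 (minus), chrX:150983085-150983334 (plus) and chr5:126776373-126776622 (plus). Capitals mark TTTGAA, the CHR letters, and CCAAT, both searched on both strands, so that a match on the other strand reads TTCAAA or ATTGG.
MKI67: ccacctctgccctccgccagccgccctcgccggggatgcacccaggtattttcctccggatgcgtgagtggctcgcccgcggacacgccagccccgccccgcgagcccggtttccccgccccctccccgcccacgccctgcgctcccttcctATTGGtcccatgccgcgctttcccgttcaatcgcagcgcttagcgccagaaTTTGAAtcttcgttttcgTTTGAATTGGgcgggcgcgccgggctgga
TOP2A: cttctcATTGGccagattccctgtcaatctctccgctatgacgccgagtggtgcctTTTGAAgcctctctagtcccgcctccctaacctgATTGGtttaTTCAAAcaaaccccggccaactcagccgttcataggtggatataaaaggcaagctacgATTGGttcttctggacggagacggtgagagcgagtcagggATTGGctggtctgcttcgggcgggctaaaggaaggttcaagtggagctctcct
HMGB3: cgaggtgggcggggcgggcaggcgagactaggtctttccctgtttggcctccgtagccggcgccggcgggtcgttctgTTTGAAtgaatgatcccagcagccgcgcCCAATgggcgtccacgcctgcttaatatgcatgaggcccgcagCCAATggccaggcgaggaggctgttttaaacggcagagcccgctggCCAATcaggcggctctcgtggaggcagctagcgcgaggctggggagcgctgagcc
LMNB1: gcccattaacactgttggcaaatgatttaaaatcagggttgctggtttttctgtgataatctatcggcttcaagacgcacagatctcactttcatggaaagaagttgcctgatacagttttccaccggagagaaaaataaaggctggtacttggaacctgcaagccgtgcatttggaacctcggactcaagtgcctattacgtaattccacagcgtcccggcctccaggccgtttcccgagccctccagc

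The MKI67 window held 2 CHR matches, beginning 47 and 29 bases before the start, and 2 CCAAT matches, 1 of which overlaps the CHR match at 29. The TOP2A window held 2 CHR and 4 CCAAT matches, and the HMGB3 window 1 CHR and 3 CCAAT matches. Neither motif was in the LMNB1 window shown, which like the others is the first listed for its gene. The second LMNB1 window had 1 CCAAT match and the second HMGB3 window had neither motif, so the contrast between these genes depends on the start site. Windows were given for 9 of the 10 genes, 16 windows in all, because HMGB2 has no entry in the promoter table used. At least 1 CHR match was found for 6 genes (MKI67, TOP2A, TOP2B, LMNB2, HMGB1 and HMGB3) and at least 1 CCAAT match for 7. Both motifs were present for TOP2B, which did not pass the test, and for HMGB1, which fell. LMNB2, which rose, had a CHR match but no CCAAT match. The 4 genes shown were picked by their response, and a link between motif and response was not tested. By window, 6 of the 16 held the CHR letters and 8 of the 16 held CCAAT, against 13.3% and 32.0% of 35116 windows of the same length. The E2F letters TTTCCCGC, TTTCGCGC, TTTGCCGC and TTTGGCGC were in 2.79% of windows and, among the 9 genes, only before LMNA. These matches describe letters in the sequence, and binding was not measured.

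Each library held between 15725298 and 18054436 counts, and all 10 genes passed the filter on low counts, with between 1094 and 12416 counts per library. METTL16 itself stood at 91.5, 96.7 and 101 CPM (counts relative to the size of the library, after TMM scaling for composition) in si-NC and at 34.8, 33.9 and 34.9 CPM in si-METTL16, a fall to 35.9% of control (edgeR's quasi-likelihood test, adjusted p = 8.3e-05). The marker values that follow are CPM of the total count, without TMM scaling. All 8 duct and epithelial markers exceeded 1 CPM in every library. Their sums were 3080 to 4166 CPM in si-NC and 3234 to 3568 CPM in si-METTL16, mostly from KRT8 and KRT18. Of the 8, 4 were called lower and none higher, whereas 17.5% of all tested genes were called lower and 18.4% higher. KRT19 was at 166 to 215 CPM in si-NC and at 53.2 to 84.2 CPM in si-METTL16. SOX9 was at 202 to 205 CPM in si-NC and at 165 to 177 CPM in si-METTL16. Acinar and islet markers summed to at most 0.297 CPM in any library, with CPA1 and GCG at 0, and endothelial markers to at most 0.919 CPM. The sum over 5 fibroblast markers was 325 to 376 CPM in si-NC and 790 to 836 CPM in si-METTL16. Nearly all of it came from COL1A1, while DCN and LUM, defining fibroblast genes, were at most 0.443 CPM. The sum over 4 leukocyte markers was 5.71 to 5.87 CPM in si-NC and 7.75 to 9.31 CPM in si-METTL16, nearly all from CD68, with CD3E at 0.

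MKI67, TOP2A, LMNB2, HMGB2 and HMGB3 rose in si-METTL16 cells, HMGB1 fell, and TOP2B, TOP1, LMNA and LMNB1 did not pass the test (edgeR's quasi-likelihood test, Benjamini-Hochberg adjusted p under 0.05 over 15089 genes). The rises ranged from 1.22-fold for HMGB2 to 2.44-fold for TOP2A. Across all genes tested, 18.4% were called higher and 17.5% lower, so 5 of 10 higher and 1 of 10 lower stand against a background in which calls are common. The 3 libraries of each group did not overlap in CPM for 7 of the 10 genes, 5 of them higher in si-METTL16 and 2 lower (HMGB1 and TOP2B). Such separation was seen in 25.7% of all tested genes in the higher direction and in 25.2% in the lower. The median log2 fold change was 0.24 over the 10 genes and -0.0045 over all tested genes. In RNA from whole cultures, a change in the share of cells that express a gene and a change in the RNA per cell cannot be told apart.

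**Figure D1:**
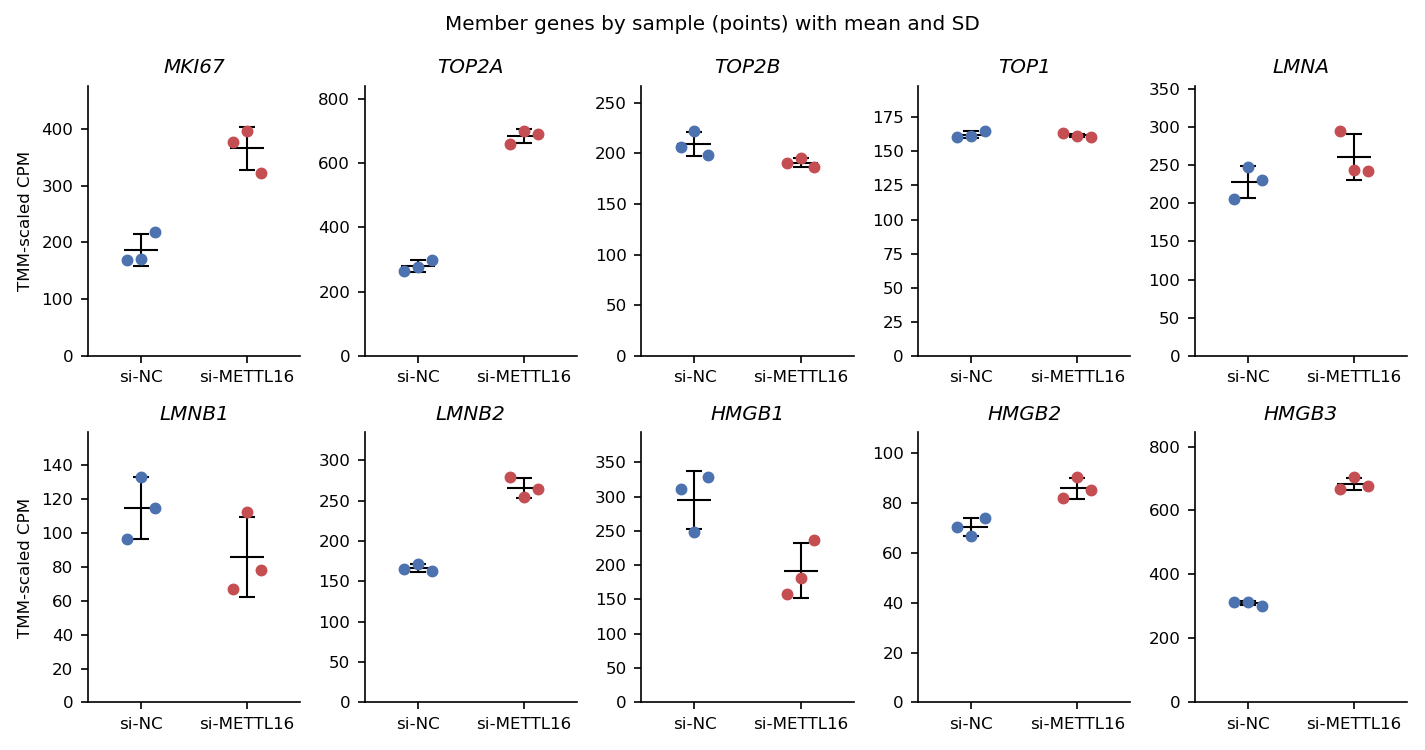
TMM-scaled CPM (y axis, from 0) of each of the 10 genes in the 3 si-NC (blue) and 3 si-METTL16 (red) libraries, with the group mean and SD in black. The groups are separated for MKI67, TOP2A, LMNB2, HMGB2 and HMGB3 (si-METTL16 higher) and for HMGB1 and TOP2B (lower), and they overlap for TOP1, LMNA and LMNB1.

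MKI67 (chr10:128096659-128126385, GRCh38) was at 169, 170 and 218 CPM in si-NC and at 378, 396 and 323 CPM in si-METTL16. The lowest silenced library was thus well above the highest control library, although the third library of each group lay apart from the others. The means were 186 ± 28.1 and 366 ± 38 CPM (SD, n = 3 each). The change was 1.97-fold, a log2 fold change of 0.98 with a standard error of 0.12 and a 95% interval of 0.69 to 1.26 (edgeR's quasi-likelihood test, adjusted p = 0.00114).

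TOP2A (chr17:40388516-40417950), which encodes the topoisomerase that cuts both DNA strands and disentangles sister chromatids at mitosis, rose most among the 10 genes. It was at 263, 277 and 298 CPM in si-NC and at 659, 700 and 691 CPM in si-METTL16, and no library of a group came near the other group. The means were 280 ± 17.3 and 683 ± 21.7 CPM (SD, n = 3 each). This was a log2 fold change of 1.29 with a standard error of 0.06 and a 95% interval of 1.14 to 1.43 (edgeR's quasi-likelihood test, adjusted p = 8.4e-05).

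TOP2B (chr3:25597905-25664907), the related enzyme that is also made in cells that no longer divide, was at 207, 222 and 199 CPM in si-NC and at 191, 196 and 187 CPM in si-METTL16. All silenced libraries lay just below the control libraries, by a margin smaller than the spread within either group. The log2 fold change was -0.13, with a 95% interval of -0.27 to 0.01 (edgeR's quasi-likelihood test, adjusted p = 0.13), so a decline of the size at the lower bound is within the error.

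TOP1 (chr20:41028818-41124487) encodes the enzyme that nicks a single DNA strand ahead of moving polymerases and is the target of camptothecin. Its level was 161, 161 and 165 CPM in si-NC and 163, 162 and 161 CPM in si-METTL16, so the groups overlapped within a narrow range. The interval of its log2 fold change ran from -0.12 to 0.11, and the adjusted p was 0.972 (edgeR). The topoisomerase genes therefore differed among themselves, with TOP2A raised and neither TOP2B nor TOP1 past the test.

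The ratio of TOP2A to TOP2B RNA within each library was taken in FPKM (fragments scaled by gene length and library size, the unit of the deposited levels). It was 1.42, 1.40 and 1.67 in si-NC and 3.86, 4.0 and 4.13 in si-METTL16. The level of such a ratio depends on the gene lengths used, whereas its fold change between groups does not. All silenced libraries were above all controls, and the ratio rose 2.68-fold, a difference of 1.42 on the log2 scale. A 2-sided exact permutation test gave p = 0.1, which is the smallest value that 3 libraries against 3 allow, and p = 0.1 after adjustment over the 4 ratios computed.

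**Figure D2:**
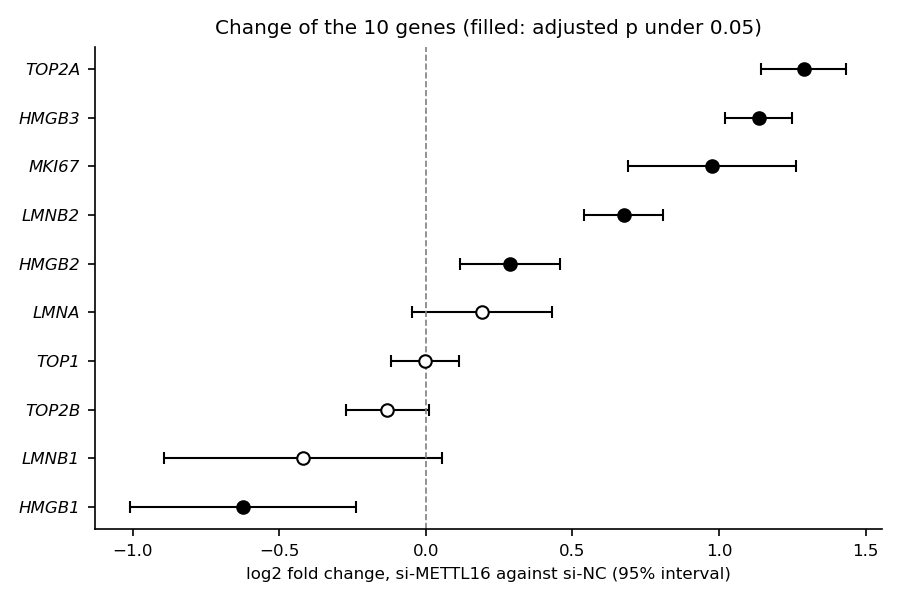
Log2 fold change of each gene in si-METTL16 against si-NC (x axis), with its 95% interval, ordered by size. Filled points (TOP2A, HMGB3, MKI67, LMNB2, HMGB2 and HMGB1) passed the adjusted threshold of 0.05, and the open points (LMNA, TOP1, TOP2B and LMNB1) have intervals that include 0.

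LMNA (chr1:156082573-156140089), the source of lamins A and C, was at 206, 247 and 231 CPM in si-NC and at 295, 244 and 242 CPM in si-METTL16. The first silenced library was high and the others lay inside the control range. LMNA thus had a log2 fold change of 0.19, with a 95% interval of -0.05 to 0.43 (edgeR's quasi-likelihood test, adjusted p = 0.183).

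LMNB1 (chr5:126776623-126837020), whose loss is a common sign of senescence, was at 96.3, 133 and 115 CPM in si-NC and at 66.7, 112 and 78.1 CPM in si-METTL16. Of the silenced libraries, replicates 1 and 3 were below every control, and replicate 2 lay inside the control range. The log2 fold change was -0.42, with a standard error of 0.20 and a 95% interval of -0.89 to 0.06 (edgeR's quasi-likelihood test, adjusted p = 0.149). Single libraries of both groups moved this value. It was -0.66 without si-METTL16 library 2 and then passed the test (edgeR's quasi-likelihood test, adjusted p = 0.0227). Without si-METTL16 library 1 it was -0.27 (adjusted p = 0.336 from edgeR). It was -0.53 without si-NC library 1 (adjusted p = 0.119 from edgeR) and -0.31 without si-NC library 2 (0.338). LMNB1 had the widest interval of the 10 genes.

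LMNB2 (chr19:2427638-2456996), which encodes the other B-type lamin, was at 166, 172 and 162 CPM in si-NC and at 279, 255 and 264 CPM in si-METTL16. Every silenced library was far above the controls, and the libraries within a group were close to each other. LMNB2 had a log2 fold change of 0.67, with a standard error of 0.06 and a 95% interval of 0.54 to 0.81 (edgeR's quasi-likelihood test, adjusted p = 0.000277). Thus the genes for the B-type lamins had fitted changes of opposite sign, of which the LMNB2 rise passed the test.

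The LMNB1 to LMNA ratio was 0.950, 1.09 and 1.01 in FPKM in si-NC and 0.460, 0.935 and 0.655 in si-METTL16. The second silenced library lay just under the lowest control. The geometric mean ratio in silenced cells was 0.646 of that in controls (exact permutation test, p = 0.1, the smallest possible). On the log2 scale the difference was -0.63, and it was -0.37 without si-METTL16 library 1 and -0.89 without si-METTL16 library 2. The LMNB2 to LMNB1 ratio, which was chosen after the values had been seen, was 1.94, 1.45 and 1.59 in si-NC and 4.70, 2.55 and 3.80 in si-METTL16, a 2.17-fold rise with the same exact permutation p = 0.1.

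**Figure D3:**
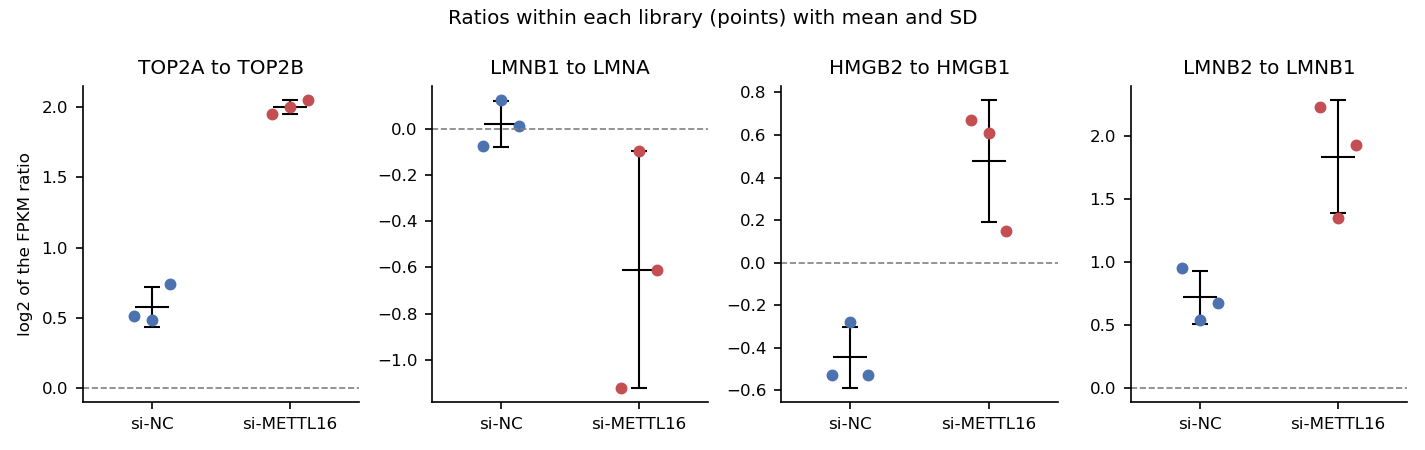
Log2 of the FPKM ratio of 2 genes within each library (y axis, a separate scale per panel) for si-NC (blue) and si-METTL16 (red), with mean and SD in black and a dashed line at equal FPKM. The height of the points relative to that line depends on the gene lengths used. In each panel the groups do not overlap, and the second si-METTL16 library comes closest to the controls in both panels that hold LMNB1.

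HMGB3 (chrX:150980509-150990775), the family member best known from stem and progenitor cells, rose nearly as much as TOP2A. It was at 313, 315 and 303 CPM in si-NC and at 666, 703 and 676 CPM in si-METTL16. The groups were tight and far apart, with means of 310 ± 6.59 and 682 ± 19.2 CPM (SD, n = 3 each). This rise was 1.14 on the log2 scale, with a standard error of 0.05 and a 95% interval of 1.02 to 1.25 (edgeR's quasi-likelihood test, adjusted p = 7.2e-05).

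HMGB2 (chr4:173331695-173335125), a chromatin protein whose loss is an early event in senescence, was at 70.3, 66.6 and 74.2 CPM in si-NC and at 82.1, 90.3 and 85.2 CPM in si-METTL16. All silenced libraries were above all controls by a small margin. HMGB2 had a log2 fold change of 0.29, with a 95% interval of 0.12 to 0.46 (edgeR's quasi-likelihood test, adjusted p = 0.019). The call was lost without si-NC library 1 (adjusted p = 0.054 from edgeR), without si-NC library 2 (0.0685) and without si-METTL16 library 2 (0.063), with the log2 fold change still 0.24 or more.

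HMGB1 (chr13:30456704-30617597), an abundant chromatin protein that acts as an alarm signal once outside the cell, was the 1 gene of the 10 that fell. It was at 311, 248 and 328 CPM in si-NC and at 158, 181 and 236 CPM in si-METTL16. The highest silenced library was only just below the lowest control, and both groups were spread. The log2 fold change was -0.62, with a standard error of 0.16 and a 95% interval of -1.01 to -0.24 (edgeR's quasi-likelihood test, adjusted p = 0.0226). The call was lost without si-NC library 1 (adjusted p = 0.0659 from edgeR), si-NC library 3 (0.0744), si-METTL16 library 1 (0.0591) or si-METTL16 library 2 (0.0718), where the log2 fold change stayed between -0.59 and -0.51.

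The HMGB1 value may also depend on how reads were split between the gene and its processed pseudogenes. These pseudogenes are copies of its spliced RNA elsewhere in the genome. The table holds 48 HMGB1 pseudogenes by symbol, 16 of them with counts, and together these have 22633 counts over the 6 libraries against 24868 for HMGB1, that is 47.6% of the sum. HMGB1P5 and HMGB1P6 hold 98.4% of the pseudogene counts. The longest HMGB1P5 transcript in GENCODE 44 aligned to 1206 of the 5456 bases of the HMGB1 MANE Select mRNA with 98.2% identity. HMGB1P6 aligned to 648 bases with 98.1%. MANE Select is the single reference transcript chosen for each gene. Bases 2 to 121 of the HMGB1 coding sequence and the matching stretches of both pseudogenes are printed to show how alike they are, with capitals at bases that are substituted or inserted relative to HMGB1.
HMGB1: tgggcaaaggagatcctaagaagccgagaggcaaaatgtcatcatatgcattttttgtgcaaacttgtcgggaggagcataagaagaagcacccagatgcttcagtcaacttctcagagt
HMGB1P5: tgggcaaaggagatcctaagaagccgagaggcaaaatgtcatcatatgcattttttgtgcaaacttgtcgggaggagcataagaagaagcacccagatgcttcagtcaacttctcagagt
HMGB1P6: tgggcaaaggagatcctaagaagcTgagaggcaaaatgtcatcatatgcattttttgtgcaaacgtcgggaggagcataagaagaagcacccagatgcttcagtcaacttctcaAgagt

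HMGB1P5 did not differ from HMGB1 over this stretch, and HMGB1P6 had 1 substituted base, 1 inserted base and 2 missing bases. A read within this stretch cannot be assigned to HMGB1 or HMGB1P5 by its sequence. How reads with several matches were counted is not given in the sources used here.

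HMGB1P5 was at 133, 163 and 144 CPM in si-NC and at 138, 168 and 162 CPM in si-METTL16, with overlapping groups. Its log2 fold change was 0.09, with a 95% interval of -0.15 to 0.33 (edgeR's quasi-likelihood test, adjusted p = 0.524). HMGB1P6 was at 60.5, 69.9 and 67.8 CPM in si-NC and at 55.6, 77.4 and 78.4 CPM in si-METTL16, with a log2 fold change of 0.09 and an interval of -0.24 to 0.42. HMGB1 summed with all its pseudogenes was at 508, 484 and 544 CPM in si-NC and at 355, 431 and 479 CPM in si-METTL16. The second control and the third silenced library differed by little on this scale. The log2 fold change of the sum was -0.28 and did not pass the test (edgeR's quasi-likelihood test, adjusted p = 0.0821). The pseudogenes held 42.4% ± 5.55 of the sum in si-NC and 54.7% ± 3.64 in si-METTL16 (SD, n = 3 each, exact permutation test, p = 0.1, the smallest possible). The part of read assignment in the HMGB1 fall was not tested. The pseudogenes of HMGB2 and HMGB3 held 0.126% and 0.229% of the corresponding sums. MKI67 had 1 pseudogene by symbol, without counts, and the topoisomerase and lamin genes had none by symbol.

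**Figure D4:**
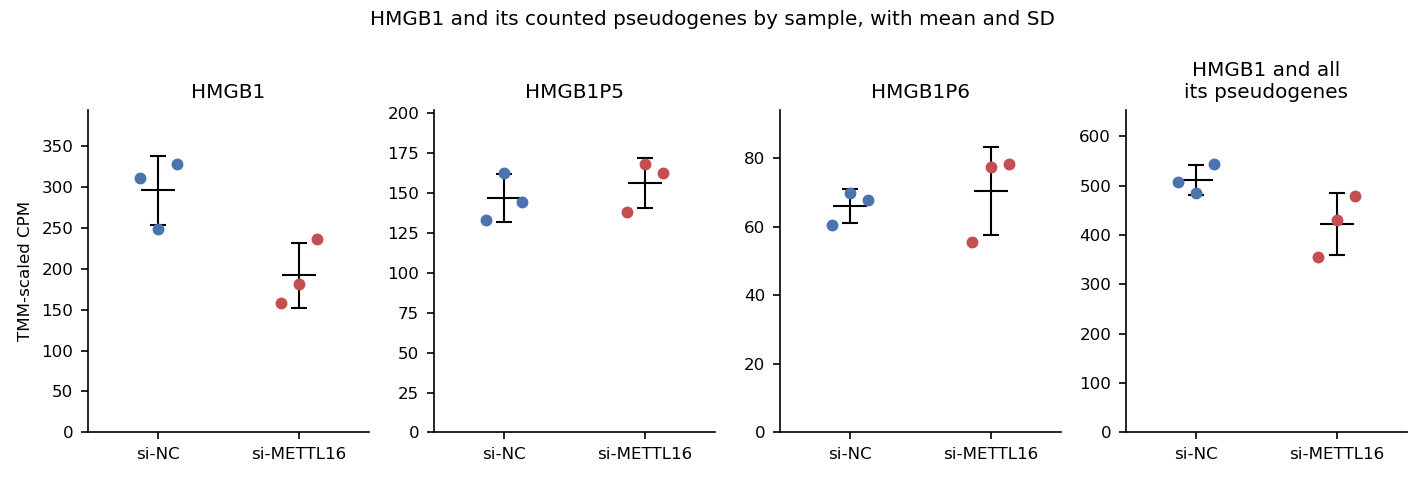
TMM-scaled CPM (y axis, from 0, a separate scale per panel) of HMGB1, HMGB1P5, HMGB1P6 and the sum of HMGB1 with its 48 pseudogenes in si-NC (blue) and si-METTL16 (red) libraries, with mean and SD in black. HMGB1 and the sum are lower in every si-METTL16 library, and the groups overlap for both pseudogenes.

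The HMGB2 to HMGB1 ratio was 0.693, 0.825 and 0.694 in FPKM in si-NC and 1.59, 1.53 and 1.11 in si-METTL16. All silenced libraries were above all controls, a 1.89-fold difference or 0.92 on the log2 scale (exact permutation test, p = 0.1, the smallest possible). With the pseudogene counts added to each gene the difference was 0.58 on the log2 scale. The HMGB genes thus had a raised member (HMGB3), a slightly raised one (HMGB2) and a lower one (HMGB1), and the last 2 calls each depended on single libraries.

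Levels between genes were compared per length. In FPKM the order in si-NC cells was HMGB3 (mean 64.4), TOP1 (43.7), TOP2A (38.6), TOP2B (25.8), LMNB2 (24.0), HMGB1 (20.5), HMGB2 (15.0), LMNB1 (14.7), LMNA (14.4) and MKI67 (12.8). TOP2B and LMNB2 overlapped over their 3 libraries, as did HMGB2, LMNB1, LMNA and MKI67 among themselves, so the order within those groups is not resolved. In si-METTL16 cells TOP2A (92.9 FPKM) had rank 2 and MKI67 (24.8 FPKM) rank 5, while LMNB1 (10.8 FPKM) had rank 10. The order depends on the gene length used. The length implied by the deposited counts and FPKM was 15952 bases for LMNA, 5.02 times its MANE Select transcript, and 14500 bases for HMGB1, 2.66 times its MANE Select transcript. For HMGB2 the implied length was 3.28 times the MANE Select transcript, and for LMNB1 2.72 times. Per kilobase of the MANE Select transcript, LMNA moved from rank 9 to rank 2 and HMGB1 from rank 6 to rank 3 in si-NC cells, and only HMGB3 (rank 1) and MKI67 (rank 10) kept their rank. On that scale in si-METTL16 cells TOP2A again had rank 2, whereas LMNB1 had rank 9 and MKI67 rank 10. The levels of the FPKM ratios share this limit. Per kilobase of the MANE Select transcript, the si-NC means were 39.9 for LMNB1, 72.2 for LMNA and 36.1 for LMNB2.

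The gene lists described from here on were chosen with earlier results of these data known, so their shares are descriptive and not independent support. Among the genes that work with the topoisomerases or repair their DNA adducts, 7 of 12 rose (58.3%, against 18.4% of all tested genes) and none fell. The median log2 fold change of this list was 0.41. The largest rises were those of BLM (log2 fold change 1.42, 2.68-fold), a helicase, and RMI2 (1.25), which together with TOP3A (0.61) and RMI1 (0.57) form the complex that separates joined DNA molecules. TOPBP1 (0.64), a scaffold of replication and checkpoint signalling, also rose. TDP1 and TDP2, which remove trapped TOP1 and TOP2 from DNA ends, had log2 fold changes of 0.39 and -0.08 and did not pass the test. TOP3B, the second type IA enzyme, had a log2 fold change of -0.37 with an adjusted p of 0.072 (edgeR).

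Of 18 partners of the lamina and genes of prelamin processing, 3 rose (16.7%, near the 18.4% of all tested genes) and 1 fell (5.56%, against 17.5%), with a median of 0.17. TMPO, whose products bind lamins and chromatin, rose 1.76-fold (edgeR's quasi-likelihood test, adjusted p = 0.000224). NUP153 (log2 fold change 0.45), a protein of the nuclear pore basket, and FNTA (0.41), a subunit of the farnesyltransferase that modifies B-type lamins and prelamin A, also rose. SYNE1, which links the nuclear envelope to the cytoskeleton, fell to 64.1% of control. LBR, the lamin B receptor, had a log2 fold change of -0.05 with an interval of -0.26 to 0.15, and ZMPSTE24, the protease that matures prelamin A, one of 0.10 with an interval of -0.03 to 0.22.

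Of 11 genes of the chromosome periphery and partners of Ki-67, 3 rose (27.3%, against 18.4% of all tested genes) and 2 fell (18.2%, against 17.5%), with a median of 0.01. CDCA2, which brings protein phosphatase PP1 to chromosomes at mitotic exit, rose 2.92-fold, and KIF15, a mitotic kinesin whose place on chromosomes depends on Ki-67, rose 2.48-fold. BOP1, a ribosome assembly factor, rose by a smaller amount (log2 fold change 0.41). The nucleolar genes NCL and RRP1B fell, with log2 fold changes of -0.29 and -0.26. NIFK, a nucleolar protein that binds the forkhead-associated domain of Ki-67, had a value of -0.20 with an interval of -0.45 to 0.05, and NPM1 had 0.01 with an interval of -0.12 to 0.15.

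Of 15 other high mobility group genes, 14 were tested, 4 rose (28.6%, against 18.4% of all tested genes) and 2 fell (14.3%, against 17.5%), with a median of 0.08, and HMGB4 did not pass the filter on low counts. HMGN2 (log2 fold change 0.85), HMGA1 (0.52) and HMGN4 (0.45) rose most, with HMGA1 overlapping between groups. HMGN5 (-0.75) and HMGN3 (-0.65) fell, so the nucleosome-binding HMGN genes moved in both directions. Reads of HMGN genes and NPM1, which have many processed copies, may also be split, and those copies were not examined.

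Of 23 senescence and secretory phenotype genes, 11 were tested, none of these passed the test as higher and 4 fell (36.4%, against 17.5% of all tested genes), with a median of -0.38. CDKN1A, a cyclin-dependent kinase inhibitor raised in many senescent cells, fell to 32.3% of control (190.7 ± 13.6 to 61.6 ± 2.91 CPM, SD, n = 3 each). CCL2 (log2 fold change -0.82) and IGFBP7 (-0.55), genes of secreted proteins, were also lower. GLB1, which encodes the lysosomal enzyme behind senescence-associated beta-galactosidase staining, had a log2 fold change of -0.02 with an interval of -0.35 to 0.32. The 12 genes that were not tested, with too few counts, included CDKN2A, IL6, IL1A and AGER, a receptor for HMGB1. Over the 5 lists, 17 of 66 tested genes rose (25.8%) and 9 fell (13.6%), which is not far from the background.

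**Figure D5:**
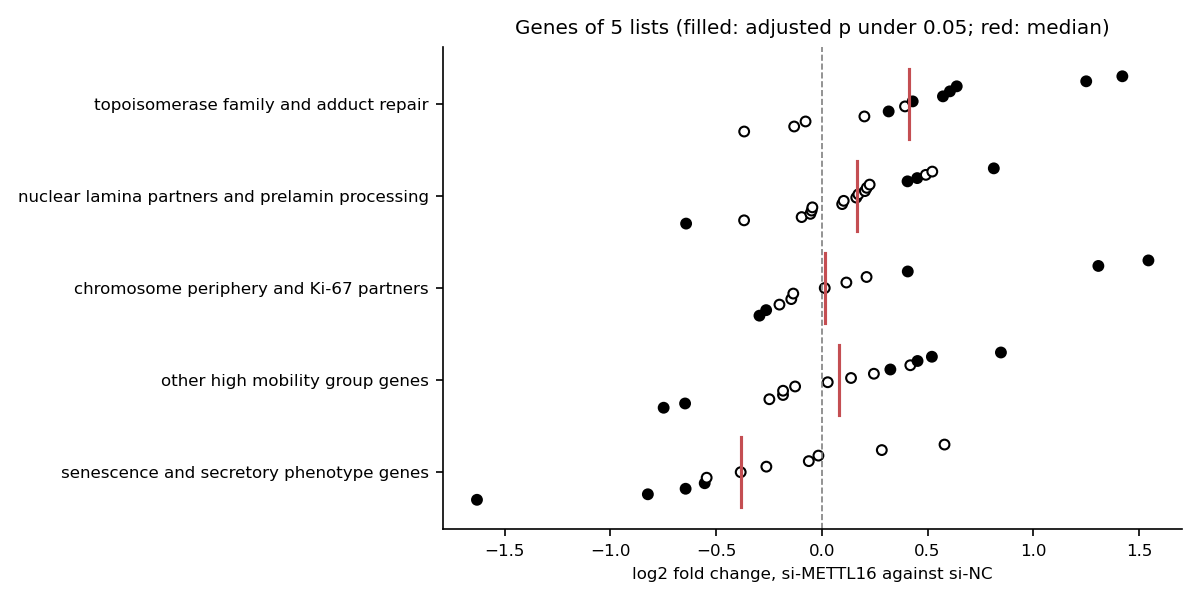
Log2 fold change in si-METTL16 against si-NC (x axis) of each tested gene of the 5 lists, 1 point per gene, with a red line at the list median. Filled points passed the adjusted threshold of 0.05; they lie to the right in the topoisomerase list (7 of 12) and to the left in the senescence list (4 of 11).

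The profile over the 6 libraries, in log2 CPM relative to the si-NC mean, was compared with those of 12652 other protein-coding genes. The nearest to MKI67 was RBL1, at a mean absolute difference of 0.032, followed by GLIS3, ZNF765, SGO1 and LIN54, all within 0.069. The nearest to TOP2A was RTKN2 at 0.027, followed by TUBD1, ECT2, ZNF367 and TTK, all within 0.042. The nearest to LMNB1 was DZIP1L at 0.034, followed by LRRCC1, METTL7B, ZNF575 and ALDH5A1, all within 0.073. Among the 10 genes themselves, TOP2B and TOP1 were closest (0.097), then TOP2A and HMGB3 (0.120). These distances share libraries and scaling, and mostly order genes by the size of their change.

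The reference genes GAPDH and ACTB had log2 fold changes of -0.10 and 0.28 and neither passed the test (edgeR's quasi-likelihood test, adjusted p = 0.398 and 0.0561). TMM factors lay between 0.987 and 1.008. The rises of COL1A1 and CD68 stand beside the changes of the 10 genes, and their part in them was not tested.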

How the data were processed

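RNA of 3 si-NC and 3 si-METTL16 cultures of PANC-1 cells was measured by RNA-seq. The authors deposited 1 table of raw counts and FPKM for 58735 genes. The submitters' processing notes name HISAT2 2.0.4, StringTie 1.3.0 and GRCh38/hg38, and the annotation and strand setting are not given in the sources used here. The deposited counts were tested with edgeR 4.0.16 (quasi-likelihood test, TMM scaling, filterByExpr with a minimum count of 10) in R 4.3.3, with Benjamini-Hochberg adjustment over 15089 genes. The study's methods name limma, which was run as an alternative (3.58.1). Ratios used the deposited FPKM and 2-sided exact permutation tests, and pseudogenes were aligned with blastn 2.17.0. Chi-square tests found no duplicated library. On simulated data for the si-METTL16 against si-NC comparison (14867 genes), 61 of 100 genes changed by 1 on the log2 scale and 11 of 100 changed by 0.5 were called, all in the right direction, with 14 unchanged genes called. The simulation changed only these few genes, whereas 18.4% of tested genes were called higher and 17.5% lower in the real data. These rates may therefore not carry over to the real comparison. Common biological variation was 16.5%.

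The genes, lists and markers were chosen with earlier results of these data known. All 10 genes and METTL16 are named, as are up to 3 highest and 3 lowest called genes per list, list genes tied to a member by function, GAPDH and ACTB, the 5 nearest genes in profile for MKI67, TOP2A and LMNB1, and copies that bear on a count, except 1 gene that is not reported here. Alternatives were a replicate block, each library left out, no filter or at least 10 counts in every library, DESeq2 size factors, total counts, DESeq2 1.42.0, limma voom, limma on log2(FPKM + 1) and log2(FPKM + 0.1) with mean FPKM of at least 1, and members summed with pseudogenes. The length used for levels and the LMNB2 to LMNB1 ratio were added after seeing the data. Reads carry no molecular identifiers, so the counts of a gene are not counts of independent molecules.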

Additional observations from a re-analysis of the deposited data

How the results depend on the processing

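MKI67, TOP2A, LMNB2 and HMGB3 passed the test in all 16 alternative analyses, with log2 fold changes of 0.91 to 1.11, 1.24 to 1.34, 0.63 to 0.70 and 1.10 to 1.15, and TOP2B, TOP1 and LMNA passed in none. The number of members called higher ranged from 4 to 5 and that of all genes called from 4159 to 5487, and list genes called higher from 14 to 20. Members called lower numbered 1 in the main analysis, 0 with each member summed with its pseudogenes, 2 with the replicate block, and 0 to 1 when single libraries were left out. List genes called lower numbered 9, and 5 to 9 when single libraries were left out (5 without si-NC library 2, si-NC library 3 or si-METTL16 library 1). The HMGB2 to HMGB1 ratio differed by 0.58 on the log2 scale with pseudogene counts added, against 0.92. HMGB1 kept its call in 2 of 6 analyses with a library left out (-0.80 to -0.51) and HMGB2 in 3 of 6. The TOP1 value, near 0 throughout, ranged from -0.015 to 0.0081 with a library left out and turned to 0.0081 without si-NC library 3 and to 0.0035 without si-METTL16 library 3; the cause was not tested.

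In the labels, libraries of the 2 groups share only a replicate number. Deviations of same-numbered libraries correlated at 0.0253, 0.0371 and 0.0298, and those of differently numbered libraries at -0.0388 to 0.00827. Whether same-numbered libraries were handled together is not given. With the replicate block 5013 genes were called, and LMNB1 passed the test with a log2 fold change of -0.44 (edgeR's quasi-likelihood test, adjusted p = 0.0182). With 3 libraries against 3, the exact permutation tests of the ratios could not go below p = 0.1, or 0.2 with a library left out. The 10 genes had at least 1094 counts in each library.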
